A study of Mus musculus with 16 samples.

Results

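The histone deacetylase genes described here are Hdac1, Hdac2, Hdac3, Hdac4, Hdac5, Hdac6, Hdac7, Hdac8, Hdac9 and Hdac11, found in the deposited counts by matching each Ensembl identifier to its gene symbol. They are 10 of the 52636 genes listed, and all 10 were among the 21371 genes that passed the filter on low counts. RNA was sequenced from lumbar dorsal root ganglia (DRG), the clusters of sensory nerve cell bodies beside the spinal cord, of 16 male C57Bl6/J mice aged 3 to 4 months, with no engineered allele named in the labels. Each of the 4 groups held 4 mice, Sham-Saline and Sham-DMI without the nerve lesion and SNI-Saline and SNI-DMI with it. SNI is spared nerve injury, here the form that cuts the common peroneal and sural branches of the sciatic nerve and leaves the tibial branch intact, and the sham groups had surgery without that lesion. DMI is desipramine, a tricyclic antidepressant that blocks noradrenaline reuptake. Each DMI mouse received 2 intraperitoneal injections per day of 15 mg/kg over 3 weeks, and saline mice were injected with the vehicle alone. Treatment began 4 weeks after surgery by the account in the results text and 4 months after it by the methods text. A whole ganglion holds injured and uninjured neurons, satellite glia, Schwann cells and immune cells. In such bulk RNA, fewer cells of a type and less RNA per cell cannot be told apart.

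Histone deacetylases remove acetyl groups from lysines of histones and other proteins, and at chromatin their action is generally linked to lower transcription. Class I enzymes (Hdac1, Hdac2, Hdac3 and Hdac8) are mostly nuclear, and all but Hdac8 work inside corepressor complexes. Class IIa proteins (Hdac4, Hdac5, Hdac7 and Hdac9) have little catalytic activity of their own, bind MEF2 transcription factors and move between nucleus and cytoplasm when kinases phosphorylate them. In sensory neurons Hdac5 is known for leaving the nucleus after axon injury, and Hdac6, a class IIb enzyme, is a cytoplasmic tubulin deacetylase. Hdac11 is the class IV enzyme.

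Nerve injury in saline-treated mice was accompanied by lower transcripts of 3 class IIa genes, Hdac9, Hdac4 and Hdac5, and by no called change of the other members. The 3 calls were lost when GC content and length trends were removed, with the direction kept. Because these 3 genes carry that result, the 250 bases before their RefSeq starts, which can differ from the GENCODE gene positions given further on in the same build, are printed first, with both starts listed for Hdac9. Each run reads 5′ to 3′ on the gene's own strand, here the minus strand, in build GRCm38.p6. Capitals mark matches to the motifs searched for on both strands.
Hdac9 outer start, chr12:34917096-34917345: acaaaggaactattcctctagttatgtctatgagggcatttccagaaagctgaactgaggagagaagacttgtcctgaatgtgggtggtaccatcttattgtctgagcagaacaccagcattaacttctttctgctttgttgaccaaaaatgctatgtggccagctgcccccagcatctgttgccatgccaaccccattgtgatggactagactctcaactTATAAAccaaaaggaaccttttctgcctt
Hdac9 inner start, chr12:34528890-34529139: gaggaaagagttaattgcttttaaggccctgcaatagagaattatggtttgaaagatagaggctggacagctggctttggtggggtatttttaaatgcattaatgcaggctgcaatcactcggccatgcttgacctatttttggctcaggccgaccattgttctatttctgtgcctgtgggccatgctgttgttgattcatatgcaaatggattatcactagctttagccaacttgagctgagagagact
Hdac4, chr1:92180342-92180591: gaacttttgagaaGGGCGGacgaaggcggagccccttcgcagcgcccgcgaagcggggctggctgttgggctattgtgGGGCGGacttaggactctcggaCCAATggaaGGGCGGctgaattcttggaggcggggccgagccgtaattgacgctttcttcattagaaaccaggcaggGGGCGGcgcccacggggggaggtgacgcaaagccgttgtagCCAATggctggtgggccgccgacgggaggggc
Hdac5, chr11:102230173-102230422: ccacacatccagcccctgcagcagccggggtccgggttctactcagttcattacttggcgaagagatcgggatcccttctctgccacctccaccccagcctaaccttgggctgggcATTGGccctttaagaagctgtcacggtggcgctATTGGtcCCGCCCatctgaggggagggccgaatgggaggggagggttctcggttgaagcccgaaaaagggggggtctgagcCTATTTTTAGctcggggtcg

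The 3 genes that fell together did not share a motif in these windows. The outer Hdac9 window held no CpG dinucleotide and 44.4% G+C, and its match was a TATA box (TATAAA) that began 29 bases before the start. The inner Hdac9 window held 2 CpG, 43.6% G+C and no match. Hdac4 had a CpG-rich window, with 23 CpG, 65.2% G+C, 4 GC boxes (GGGCGG) and 2 CCAAT boxes (CCAAT). In the Hdac5 window there were 12 CpG, 60.8% G+C, 1 GC box, 2 CCAAT boxes and a match to the MEF2 site, which began 20 bases before the start and overlapped no other match. Among 32851 promoter windows of the same length, 32.7% held a GC box, 33.8% a CCAAT box, 12.4% this TATA box and 2.92% a MEF2 site, and the medians were 52.4% G+C and 6 CpG. The cyclic AMP response element (TGACGTCA, in 1.55% of all windows) and the AP-1 site (TGAGTCA, in 4.46%) were in none of the windows of the 8 members with an entry in the RefSeq table. These matches describe letters and not binding.

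The order of the members by level changed little between groups, apart from the places of Hdac5 and Hdac6. Per kilobase of exon, Hdac2, the class I enzyme of several corepressor complexes, was the highest at 26.1 ± 1.13 CPM per kilobase (CPM are counts scaled to library size) (SD, n = 16). Hdac3, the catalytic subunit of the NCoR and SMRT complexes, followed at 24.1 ± 1.96, and Hdac11 at 20.5 ± 1.16. Hdac2 exceeded Hdac3 in 15 of 16 libraries, and Hdac3 exceeded Hdac11 in 15 of 16. A wide step then separated these 3 genes from Hdac5 at 8.75 ± 0.673 CPM per kilobase, with no overlap between Hdac11 and Hdac5 in any library. On this scale Hdac6 stood at 8.55 ± 0.436, and each of Hdac5 and Hdac6 was the higher in 8 of 16 libraries. Hdac5 was the higher in 4 of 4 Sham-Saline libraries, without overlap, and in 3 of 4 Sham-DMI libraries. Hdac6 was the higher in 4 of 4 SNI-Saline and 3 of 4 SNI-DMI libraries, with overlapping ranges. Hdac1 stood at 7.36 ± 0.621 and Hdac7 at 4.93 ± 0.398 CPM per kilobase. The lowest members were Hdac4 at 3.23 ± 0.304, Hdac9 at 2.58 ± 0.369 and Hdac8, an X-linked class I enzyme, at 2.17 ± 0.113. Hdac9 lay above Hdac8 without overlap in Sham-Saline mice (2.89 to 3.27 against 1.97 to 2.15 CPM per kilobase), and the ranges of both genes overlapped in the DMI groups. Part of this order depended on the length used. Per kilobase of the longest transcript, Hdac11 (29.8 ± 1.68) exceeded Hdac3 (27.3 ± 2.21) in 14 of 16 libraries, Hdac5 (14.2 ± 1.10) and Hdac1 (12.5 ± 1.05) both exceeded Hdac6 (9.87 ± 0.508), Hdac4 was higher than Hdac7 in 8 of 16 libraries and Hdac8 higher than Hdac9 in 8 of 16. Hdac2 was the highest member on both scales.

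**Figure D1:**
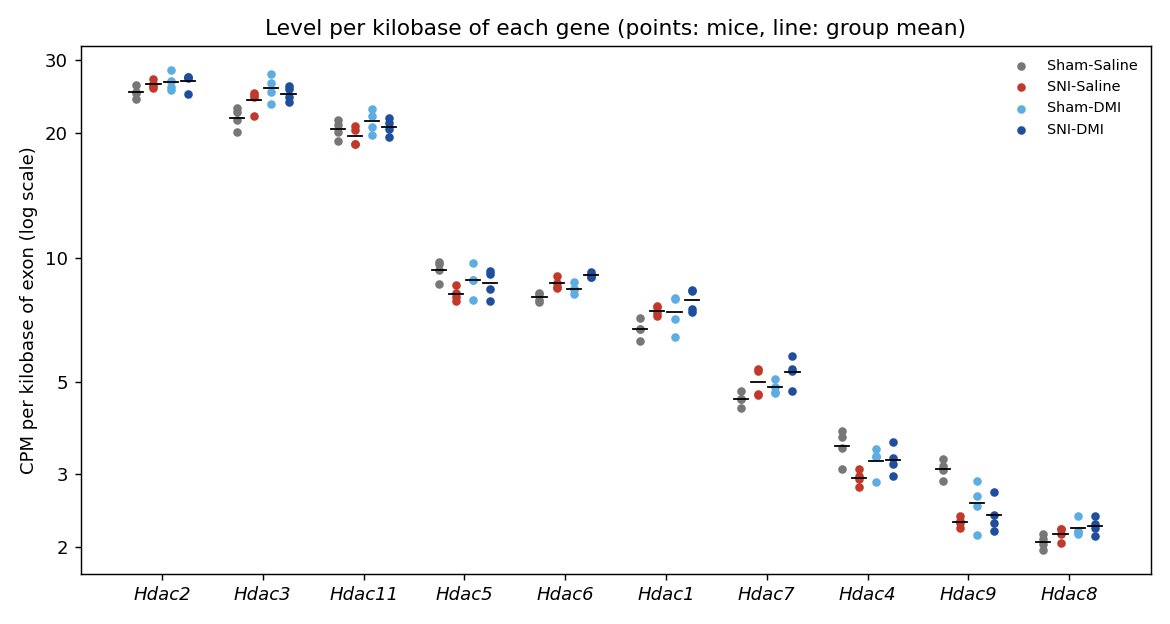
CPM per kilobase of exon on a log axis for each gene, with points for the 16 mice coloured by group and lines at the group means. Hdac2, Hdac3 and Hdac11 lie between 18.8 and 28.4 and the other 7 genes between 1.97 and 9.77.

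Summed per kilobase by class, the class IIa genes made up a smaller share of all members' RNA in SNI-Saline, Sham-DMI and SNI-DMI mice than in Sham-Saline mice. Their share was 19.6% ± 0.831 in Sham-Saline mice, ranging from 18.8% to 20.6%, and 17.3% ± 0.668 in SNI-Saline mice, from 16.6% to 18.1% (SD, n = 4 each). It was as low in the uninjured Sham-DMI mice, at 17.5% ± 1.05 (16.2% to 18.5%), and was 17.7% ± 0.754 in SNI-DMI mice (17% to 18.5%). The class I share was 53.2% ± 1.82 in Sham-Saline and 56.1% ± 1.11 in SNI-Saline mice. These shares are descriptions, and they sum genes chosen with the results known. The summed level of all members was 105 ± 1.22 CPM per kilobase for Sham-Saline and 107 ± 2.30 for SNI-Saline mice, and 111 ± 4.53 and 111 ± 2.88 for the matching DMI mice. The class IIa sum itself was 20.5 ± 0.836 CPM per kilobase in Sham-Saline mice (19.7 to 21.3) and 18.4 ± 0.591 in SNI-Saline mice (17.9 to 19.1). In Sham-DMI mice it was 19.5 ± 1.25 (17.7 to 20.3) and in SNI-DMI mice 19.6 ± 1.15 (18.4 to 20.9), both overlapping Sham-Saline mice.

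The labels were checked against known injury genes. Atf3, the stress-induced transcription factor of injured sensory neurons, had 10.5 ± 2.16 CPM in the Sham-Saline group against 52.4 ± 1.60 with SNI, and 16.9 ± 5.11 against 55.2 ± 18.3 under desipramine. In the labels the tissue field reads spinal cord, while the cell type field reads dorsal root ganglia. The sensory neuron genes Avil (824 to 1033 CPM) and Prph (1436 to 1960 CPM) were high, while the motor neuron genes Chat and Mnx1 stayed at or below 0.0919 and 0.122 CPM. Assigned counts ran from 41194238 to 73920332 per library. The titles carry library numbers that form an unbroken block per group, and what these numbers stand for is not given in the sources used here, so that anything that follows them cannot be told apart from the groups.

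The first comparison asked how chronic injury alone changed the ganglia. Between SNI-Saline and Sham-Saline mice, 3 of the 10 members were called at an adjusted p under 0.1 by edgeR's quasi-likelihood test with Benjamini-Hochberg adjustment, all 3 lower. Over all genes tested, 12% were called, 5.85% higher and 6.18% lower. By the rule the study used to define its gene sets, an unadjusted p under 0.05 with a log2 fold change of 0.32 or more in either direction, only Hdac9 passed, where 7.15% of all genes did. The median log2 fold change was 0.065 over the members and -0.001 over all genes tested.

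Hdac9 fell the most. Its levels in the Sham-Saline mice were 47.9, 42.3, 44.9 and 46.1 CPM, and in the SNI-Saline mice 32.5, 33.5, 33.8 and 34.7 CPM. Every injured mouse was below every sham mouse, and the gap between the groups was wider than the range within either. The log2 fold change was -0.43 ± 0.079 (SE, edgeR adjusted p = 0.00921), a decrease to 0.743-fold. Hdac9 (ENSMUSG00000004698) lies on the minus strand of chromosome 12 at 34047580 to 34917095 and encodes a class IIa corepressor with a MEF2 binding part.

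Hdac4, the class IIa gene best known from muscle and growth plate, was the next. The Sham-Saline mice had 54.9, 48.7, 60.2 and 58.1 CPM and the SNI-Saline mice 44.1, 46.2, 47.0 and 48.8 CPM. The groups met at the edge, where the lowest sham mouse (48.7 CPM) was just under the highest injured mouse (48.8 CPM). The log2 fold change was -0.25 ± 0.072 (edgeR adjusted p = 0.0482). The call was lost without SNI-Saline mouse 1 or 2, or without Sham-Saline mouse 1, 3 or 4, and over all 16 fits that left out a library the log2 fold change lay between -0.31 and -0.20 and the adjusted p between 0.0209 and 0.187. Hdac4 (ENSMUSG00000026313) lies on the minus strand of chromosome 1 at 91928779 to 92195699.

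Hdac5, the member known for nuclear export after axotomy, had 75.8, 82.0, 84.9 and 85.8 CPM in Sham-Saline mice and 71.9, 75.3, 70.7 and 69.1 CPM in SNI-Saline mice. All 4 injured mice were below all 4 sham mice, by a margin of 75.3 against 75.8 CPM at the nearest pair. The log2 fold change was -0.195 ± 0.064 (edgeR adjusted p = 0.0785). The call was the least secure of the 3, being lost in 10 of the 16 fits that left out a library (every SNI-Saline mouse, Sham-Saline mouse 2, 3 or 4, SNI-DMI mouse 1, and Sham-DMI mouse 2 or 3) with adjusted p up to 0.241, and without the filter on low counts (adjusted p = 0.102). Hdac5 (ENSMUSG00000008855) lies on the minus strand of chromosome 11 at 102194432 to 102230166.

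**Figure D2:**
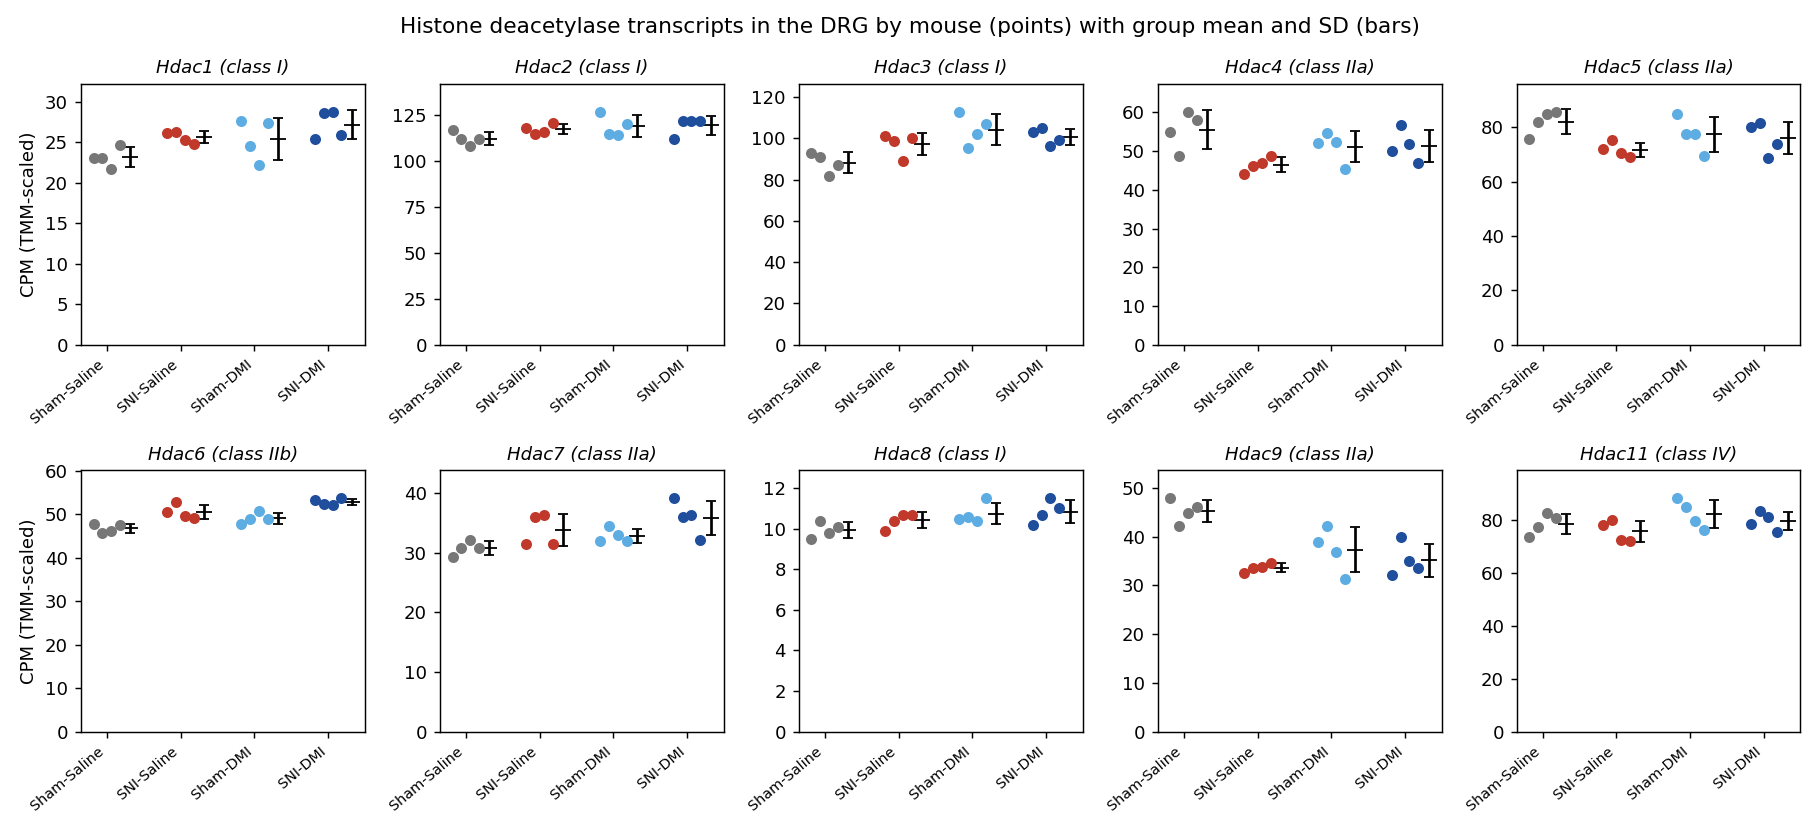
CPM on linear axes from 0, with a panel for each gene, with points for single mice and a bar for the mean ± SD of each group of 4. Hdac9 runs from 42.3 to 47.9 in Sham-Saline mice and from 32.5 to 34.7 in SNI-Saline mice, and Hdac3 lies higher in Sham-DMI than in Sham-Saline mice.

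The fourth class IIa gene did not follow them. Hdac7, a class IIa gene of endothelial cells and lymphocytes, had 30.7 ± 1.15 CPM without and 33.8 ± 2.67 CPM with injury, with a log2 fold change of 0.14 ± 0.064 (edgeR adjusted p = 0.216). Its last exon overlaps Slc48a1 on the opposite strand, a gene with a median count of 13046, and the strand setting of the counting is not given in the sources used here. The overlap lies within positions 97792664 to 97792692 of chromosome 15, a small part of the 6755 bases of Hdac7 exon. RefSeq lists 4 starts for Hdac7, whose windows ranged from 56.4% to 74.0% G+C and from 5 to 25 CpG, and 1 of the 4 held a match, a GC box.

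The class I members had positive fold changes that did not pass the threshold in the fit of all 16 libraries. Hdac3 went from 88.3 ± 5.05 to 97.4 ± 5.53 CPM (log2 fold change 0.14 ± 0.058, edgeR adjusted p = 0.149), Hdac1 from 23.2 ± 1.23 to 25.6 ± 0.711 CPM (0.15 ± 0.070, adjusted p = 0.214), Hdac2 from 112 ± 3.67 to 117 ± 2.58 CPM (0.06 ± 0.046, adjusted p = 0.440) and Hdac8 from 9.96 ± 0.387 to 10.4 ± 0.392 CPM (0.07 ± 0.069, adjusted p = 0.619). Hdac3 passed without SNI-Saline mouse 3 (adjusted p = 0.0673) and without Sham-DMI mouse 2 (adjusted p = 0.0874). Hdac1 values are uncertain, since its processed pseudogene Gm10093 on chromosome 17 was itself given 388 to 639 counts per library against 888 to 1870 for Hdac1. Hdac6 was close to the threshold. Its 4 injured mice, at 50.5, 52.7, 49.5 and 49.2 CPM, were all above the 4 sham mice at 47.7, 45.6, 46 and 47.5 CPM, with a log2 fold change of 0.11 ± 0.041 and an edgeR adjusted p of 0.105. It was called under DESeq2 (adjusted p = 0.0353), with upper-quartile scaling (0.0735), with at least 10 counts in every library (0.0871) and in 4 of the 16 edgeR fits that left out a library (SNI-DMI mouse 3 or Sham-DMI mouse 1, 2 or 3, adjusted p from 0.0722 to 0.0984), and not with the trends removed (0.165). Hdac11 was at 78.6 ± 3.90 and 75.8 ± 4.02 CPM (log2 fold change -0.05 ± 0.056, adjusted p = 0.631). Groups that did not overlap were seen for 4 members, Hdac1 and Hdac6 higher and Hdac5 and Hdac9 lower, where 15.4% of all genes tested did not overlap.

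Transcript composition moved with the groups. In each library the expected log2 difference between a gene of 60% G+C and a gene of 40% G+C was computed. Among saline mice it lay between -0.33 and -0.12 without injury and between -0.12 and 0.08 with injury. Among DMI mice it lay between -0.05 and 0.25 without injury and between 0.09 and 0.30 with injury. The matching difference between a gene of 8 and a gene of 2 kilobases was 0.03 to 0.14, -0.04 to 0.01, -0.08 to 0.06 and -0.07 to -0.04 in the same order. Hdac4, Hdac9 and Hdac5 have the longest exon sequence of the members, at 15813, 14665 and 8780 bases, against 3445 to 6755 bases for the rest. The G+C content of their longest transcripts is 52.5%, 45.0% and 59.8% in that order. Over all members it runs from 41.9% (Hdac2) and 43.0% (Hdac8) to 60.2% (Hdac7). Both trends were removed together, and the part of each was not tested. With both trends removed, 0 of the members were called for injury, where 4.96% of all genes tested were. The log2 fold changes then were -0.26 ± 0.086 for Hdac9 (edgeR adjusted p = 0.114), -0.145 for Hdac4 (adjusted p = 0.266) and -0.14 for Hdac5 (adjusted p = 0.137). The 3 genes kept their direction.

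**Figure D3:**
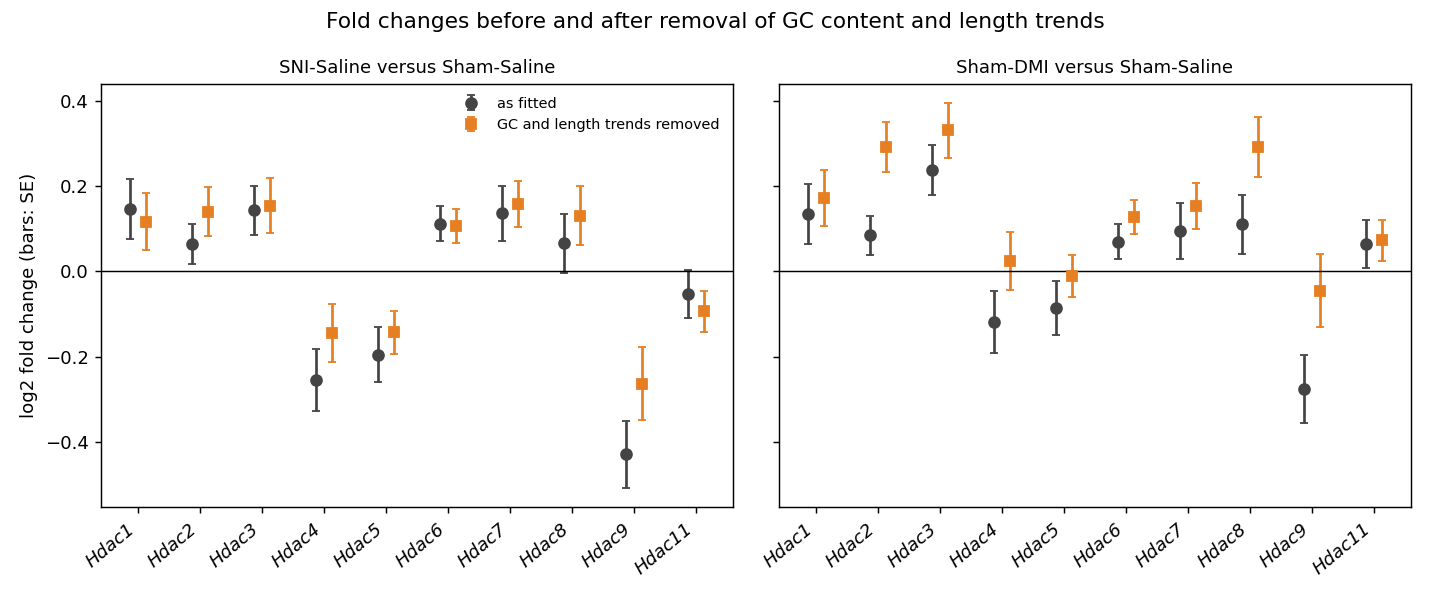
Log2 fold changes with standard errors for the 10 genes in SNI-Saline versus Sham-Saline and Sham-DMI versus Sham-Saline, as fitted (circles) and with GC content and length trends removed (squares). Hdac9 moves from -0.43 to -0.26 in the first comparison and from -0.28 to -0.045 in the second.

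Desipramine without injury was compared next, in Sham-DMI and Sham-Saline mice. These are the same Sham-Saline mice as in the injury comparison, so the 2 sets of fold changes share their baseline. Hdac3 rose and Hdac9 fell, so 2 of 10 members were called, where 23.4% of all genes tested were (11.6% higher and 11.9% lower). By the unadjusted p with the fold limit, 0 members passed, where 11.5% of all genes did. Hdac3 was at 113, 95.2, 102 and 107 CPM in the Sham-DMI mice and at 93.1, 91.2, 81.6 and 87.2 CPM in the Sham-Saline mice. All 4 treated mice were above all 4 controls, and groups were apart for 17.1% of all genes tested. The log2 fold change was 0.24 ± 0.058 (edgeR adjusted p = 0.0112), an increase to 1.18-fold. This call held in all 16 fits that left out a library (adjusted p from 0.00202 to 0.0349) and in the 7 other alternatives (0.00164 to 0.0323), among them the fit without GC content and length trends (log2 fold change 0.33 ± 0.064, adjusted p = 0.00223).

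Hdac9 was at 39, 42.3, 36.8 and 31.4 CPM in the Sham-DMI mice, against 42.3 to 47.9 CPM in the Sham-Saline mice. The treated mice reached from the injured level of this gene to the lower edge of the sham range. The log2 fold change was -0.28 ± 0.079 (edgeR adjusted p = 0.0237), and with the trends removed it was -0.045 ± 0.086 (adjusted p = 0.785). Hdac4 (51.1 ± 3.99 against 55.5 ± 5.04 CPM) and Hdac5 (77.4 ± 6.39 against 82.1 ± 4.53 CPM) had log2 fold changes of -0.12 ± 0.072 and -0.09 ± 0.064 that were not called (edgeR adjusted p = 0.286 and 0.397), and the sign for Hdac4 turned to 0.02 with the trends removed. The remaining 6 members had log2 fold changes of 0.065 (Hdac11) to 0.13 (Hdac1), with adjusted p from 0.204 to 0.466. The members' median was 0.08 and that of all genes was -0.02.

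Removing the trends raised the number of called members here and lowered it for injury. The fold changes of Hdac2, Hdac3, Hdac4, Hdac5, Hdac7, Hdac8 and Hdac9 became higher in both comparisons. Those of Hdac1, Hdac6 and Hdac11 became higher only in Sham-DMI against Sham-Saline. In that comparison removing the trends gave 6 called members, all higher, Hdac3 with Hdac1 (0.17), Hdac2 (0.29), Hdac6 (0.13), Hdac7 (0.15) and Hdac8 (0.29 on the log2 scale). Over all genes, 2475 of 5010 called genes (23.4% of those tested) were higher as fitted. With the trends removed, 3974 of 4643 called genes (21.8% of those tested) were higher. The median log2 fold change over all genes tested was -0.021 as fitted and 0.062 with the trends removed. The rise of Hdac3 and the absence of a called rise of Hdac4, Hdac5, Hdac9 and Hdac11 were common to both fits.

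In injured mice, desipramine was followed by no called change of any member. Between SNI-DMI and SNI-Saline mice, edgeR called 0 of 10 members, where 2.93% of all genes tested were called, and 0 reached an unadjusted p under 0.05 against 18.5% of all genes. DESeq2 also called 0. All 10 log2 fold changes were above 0, from 0.025 for Hdac2 to 0.14 for Hdac4, and 49% of all genes tested had a positive value. Hdac4 was at 50.1, 56.7, 51.9 and 46.9 CPM in the SNI-DMI mice against 44.1 to 48.8 CPM in the SNI-Saline mice. Each treated mouse was above the injured mean of 46.5 CPM, while the groups overlapped (log2 fold change 0.14 ± 0.073, 95% interval -0.009 to 0.296, edgeR adjusted p = 0.298). Hdac9 stayed near the injured level, at 32.1, 39.9, 35.1 and 33.5 CPM (log2 fold change 0.06 ± 0.079, 95% interval -0.10 to 0.23, adjusted p = 0.701). Hdac5 was at 80.0, 81.5, 68.9 and 74.0 CPM (0.085 ± 0.064, 95% interval -0.05 to 0.22, adjusted p = 0.502). Across all 10 members the 95% intervals lay between -0.10 and 0.30.

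**Figure D4:**
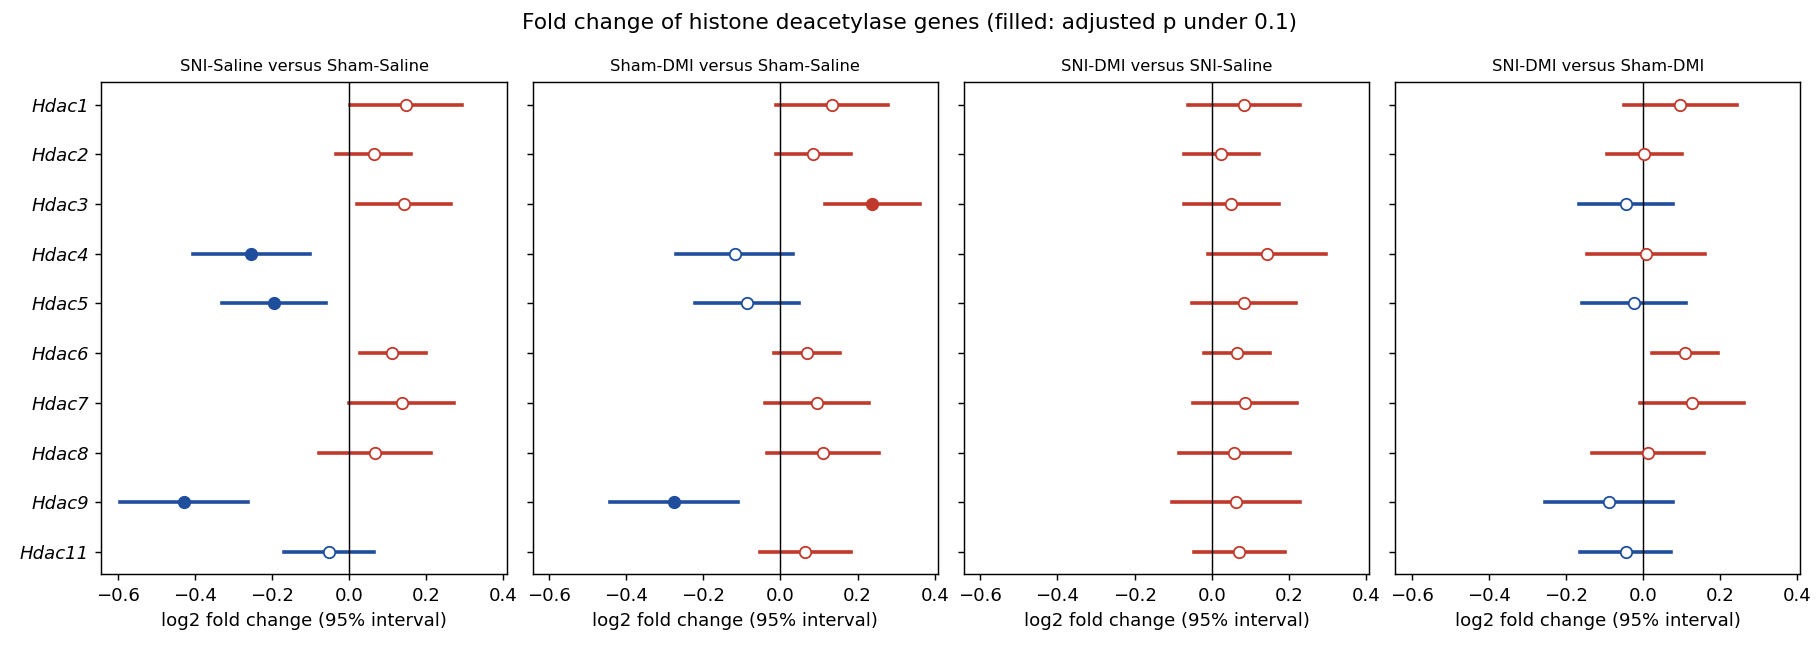
Log2 fold changes (points) with 95% intervals (lines) of the 10 genes in the 4 pairwise comparisons, filled where the edgeR adjusted p was under 0.1 and open otherwise. Filled points are Hdac4, Hdac5 and Hdac9 below 0 for injury, and Hdac3 above and Hdac9 below 0 for desipramine in sham mice.

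Within desipramine-treated mice, injury was followed by no called change either. The comparison of SNI-DMI with Sham-DMI mice shares no library with that of the saline groups. edgeR and DESeq2 called 0 of 10 members, and 0.402% of all genes were called by edgeR. Hdac6 alone passed an unadjusted p under 0.05 (12.1% of all genes did), with an edgeR adjusted p of 0.301. Its levels were 53.2, 52.2, 52.1 and 53.6 CPM in SNI-DMI and 47.6, 48.8, 50.7 and 48.8 CPM in Sham-DMI mice, without overlap, and the log2 fold change of 0.11 ± 0.041 stood beside the 0.11 ± 0.041 seen between the saline groups. With the trends removed both values parted, at 0.05 (adjusted p = 0.627) here and 0.11 (adjusted p = 0.165) between the saline groups. Non-overlapping groups were found for 5.04% of all genes tested. The 3 class IIa genes that were lower with injury under saline had log2 fold changes here of -0.09 ± 0.079 (Hdac9), 0.008 ± 0.072 (Hdac4) and -0.02 ± 0.064 (Hdac5).

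The difference between both desipramine effects was tested directly, as the effect in injured mice minus the effect in sham mice. edgeR and DESeq2 called 0 members, edgeR called 0.0% of all genes tested, and DESeq2 called 16 genes in all. At an unadjusted p under 0.05 there were 3 members, where 7.92% of all genes were. Hdac9 had the largest difference, 0.34 ± 0.112 on the log2 scale (edgeR adjusted p = 0.619). Hdac4 followed with 0.26 ± 0.102, and Hdac3 with -0.19 ± 0.083, both with the same adjusted p. None of the members was therefore shown to respond differently in injured and sham mice.

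Genes that work with the deacetylases were described from lists. Under injury alone, the acetyltransferases, which oppose the deacetylases, had 3 of 14 genes called, all lower, where 6.18% of all genes were called lower. Crebbp, a histone acetyltransferase and coactivator, went from 47.6 ± 2.07 to 36.9 ± 4.95 CPM (log2 fold change -0.37 ± 0.073, edgeR adjusted p = 0.0137), with Ncoa1 at -0.34 and Ep300 at -0.255. The list's median was -0.10. Crebbp and Ncoa1 were still called with the trends removed (-0.27 for both), and Ep300 was not. Among class I corepressor subunits 4 of 44 were higher and 8 lower (median -0.05), beside 5.85% and 6.18% of all genes. The named ones were the NuRD members Chd5 (-0.41), Mta3 (-0.22), Gatad2b (-0.25) and Cdk2ap1 (0.23), and the Sin3-associated Brms1 (0.225). With the trends removed 3 were called, all lower, where 4.96% of all genes tested were called.

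Among class IIa partners and kinases, 1 of 27 tested genes rose and 5 fell with injury (median -0.02), with the same 5.85% and 6.18% over all genes. Camk1, a calcium and calmodulin dependent kinase, rose from 51.4 ± 1.84 to 64.6 ± 3.63 CPM (log2 fold change 0.33 ± 0.058, edgeR adjusted p = 0.00753), and also in SNI-DMI against Sham-DMI mice (57.1 ± 4.53 to 69.9 ± 2.71 CPM, 0.29 ± 0.058, adjusted p = 0.0443). In the latter it was the only gene called from any of the 6 partner lists, and with the trends removed its adjusted p there was 0.101. That second call was also lost without SNI-DMI mouse 1 or 4 or Sham-DMI mouse 2 or 3 (adjusted p up to 0.219). Mef2c (-0.31), Mef2a (-0.275), Camk4 (-0.30) and Camk2d (-0.16) were among those lower with injury under saline. With the trends removed Camk4 was still called and Mef2c (-0.08), Mef2a (-0.07) and Camk2d (0.04) were not. Of the acetyl-lysine readers, 3 of 18 were called, all lower, among them Mllt3 (-0.27) and Bptf (-0.26). Here the NAD-dependent deacetylases Sirt2 (0.17) and Sirt7 (0.16) were higher, 2 of 7 sirtuins. Of 10 Hdac6 substrates and partners, 3 were higher, Cttn (0.17), which encodes cortactin, and the tubulin genes Tuba1b (0.23) and Tuba4a (0.17). Of the readers, sirtuins and Hdac6 partners named, Cttn was still called with the trends removed and the other 6 were not. With a library left out, the counts for injury ran from 1 to 4 acetyltransferases, 1 to 16 corepressor subunits, 2 to 7 class IIa partners, 1 to 4 readers, 0 to 2 sirtuins and 1 to 4 Hdac6 partners, with the lowest count reached, among other fits, without Sham-Saline mouse 3 for the acetyltransferases and without SNI-Saline mouse 1 for the others. Crebbp, Brms1, Camk1, Mef2c, Mllt3 and Cttn were called in all 16 of these fits, and each of the other genes named for injury lost its call in 1 to 6 of them.

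In sham mice given desipramine more of these genes were called, as were more of all genes (23.4% against 12% for injury). The counts were 2 higher and 6 lower of 14 acetyltransferases, 5 and 9 of 44 corepressor subunits, 2 and 6 of 27 class IIa partners, 1 and 6 of 18 readers, 1 and 1 of 7 sirtuins, and 5 and 0 of 10 Hdac6 substrates and partners, beside 11.6% and 11.9% of all genes. With a library left out the totals ran from 4 to 8, 8 to 21, 4 to 11, 2 to 7, 2 to 3 and 3 to 7 in this order, the lowest reached, among other fits, without Sham-Saline mouse 3 for the acetyltransferases, corepressor subunits and readers, without Sham-DMI mouse 1 for the class IIa partners and without Sham-Saline mouse 2 for the Hdac6 partners. With the trends removed, 21.8% of the 21324 genes tested were called, and 3974 of those 4643 calls were higher. As over all genes, the balance then turned towards higher genes in every list except the Hdac6 substrates and partners, where all calls were already higher. The counts were 4 and 3, 8 and 2, 5 and 1, 3 and 0, 3 and 0, and 6 and 0 in the same order. Examples were Kat2b (39.2 ± 1.69 against 47.7 ± 1.40 CPM, log2 fold change -0.29 ± 0.055, edgeR adjusted p = 0.00337), Sirt1 (-0.36), Camk4 (-0.38) and Tuba1b (226 ± 16.7 against 174 ± 10 CPM, 0.37 ± 0.058, adjusted p = 0.00184), of which Sirt1 was not called with the trends removed. In injured mice given desipramine, Crebbp rose from 36.9 ± 4.95 to 45 ± 1.77 CPM (0.28 ± 0.073, edgeR adjusted p = 0.0800) and Sin3b, a scaffold of the Sin3 complex, from 75.6 ± 0.953 to 90.3 ± 1.91 CPM (0.26 ± 0.042, adjusted p = 0.0622), while Kat2b fell from 45.7 ± 2.88 to 38.4 ± 2.14 CPM (-0.25 ± 0.055, adjusted p = 0.0630). Mier2 (0.22), Sfn (0.43) and Tuba1b (0.22) were also called there. Crebbp and Sin3b stayed called with the trends removed. All of these calls were lost without SNI-DMI mouse 1, 2 or 3 or SNI-Saline mouse 1 or 3, fits in which edgeR called 0 of all genes and 2696 to 3780 genes had an unadjusted p under 0.05.

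Cell type markers moved beside these results, and their part in them was not tested. With injury, 4 of 9 macrophage markers were higher, where 5.85% of all genes were (1 with the trends removed, and 0 to 5 with a library left out, 0 without SNI-Saline mouse 2), and their summed level was 95.7 to 112 CPM without and 120 to 205 CPM with injury. Of 12 neuronal markers 1 was higher and 1 lower, and their sum overlapped (12601 to 13789 against 12842 to 14277 CPM). Of 10 injured sensory neuron markers 9 were higher, with sums of 329 to 357 and 587 to 646 CPM. Of 8 satellite glia markers 1 was higher and 1 lower, and their sum was higher without overlap (2808 to 3193 against 2454 to 2694 CPM). Of 8 endothelial cell and pericyte markers 0 were called by edgeR, 1 had an unadjusted p under 0.05, all 8 fold changes were below 0, and the sum was lower without overlap (274 to 330 against 337 to 387 CPM). In Sham-DMI against Sham-Saline mice, 11.6% of all genes tested were called higher and 11.9% lower. There 6 of the 10 injured sensory neuron markers were also higher (390 to 433 CPM), and of 12 neuronal markers 4 were higher and 1 was lower. Of 10 neutrophil markers 7 were lower (3.97 to 19.7 against 11.3 to 42.2 CPM). The defining neutrophil gene Ly6g was at or below 0.391 CPM in every library. Of the 8 endothelial cell and pericyte markers 2 were lower in that comparison (285 to 310 against 337 to 387 CPM). In SNI-DMI against SNI-Saline mice, 2 of the 10 neutrophil markers were lower, where 1.61% of all genes were called lower. All 10 fold changes were below 0, and the sums did not overlap (4.85 to 14.6 against 16.8 to 53.5 CPM). With a library left out, 0 to 5 of them were called there, and 1 was called with the trends removed.

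Over the 16 libraries the members fell into different patterns. The log2 CPM of Hdac4 and Hdac9 had the highest Pearson r of any pair of members (0.821), and Hdac6 and Hdac9 the lowest (-0.672). Over all genes tested, the patterns most like that of Hdac9 were those of Pld5 (r = 0.955), Cobl (0.954) and Flrt1 (0.953). For Hdac3 they were Mzt2 (0.965), 2410004B18Rik (0.953) and Cdkn2d (0.952), and for Hdac4 Igsf3 (0.908), Numa1 (0.887) and N4bp1 (0.887). These correlations are descriptions over 16 libraries that also share the group differences and the GC content trend.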

How the data were processed

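RNA from the DRG of 16 mice, 4 in each group, was prepared by the authors with a stranded mRNA kit and sequenced as paired reads of 50 bases. The deposited values are raw counts per Ensembl gene, 1 file per mouse. Per the labels the submitters' notes name HISAT2, HTSeq, DESeq2 and mm10, and the versions, annotation release and strand setting are not given in the sources used here. Of each library's counts, 18.83% to 20.44% were on lines that name no gene, and these were left out. Identifiers were matched to GENCODE M21 (52489 of 52636). All 16 libraries were fitted together with edgeR 4.0.16 in R 4.3.3 (TMM scaling, filterByExpr, glmQLFit and glmQLFTest, 1 coefficient per group), which was tested on simulated data. A gene was called at a Benjamini-Hochberg adjusted p under 0.1 over the 21371 genes tested, a threshold the study gives beside its main rule of an unadjusted p under 0.05 with a log2 fold change of 0.32 or more in either direction. CPM were TMM-scaled, and levels between genes were divided by the kilobases of merged exons.

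Alternatives were upper-quartile scaling, no filter, at least 10 counts in every library, a replicate block, edgeR on the 8 libraries of a comparison, DESeq2 1.42.0, each library left out, and the removal of per-library trends with GC content and length (mgcv 1.9.3). Between replicates the lowest correlation of log2 CPM was 0.987, and the chi-square per gene was 10.38 to 44.28, so that all 16 libraries were counted as separate samples. At 41194238 to 73920332 counts per library, members had from 416 to 8415 counts, and the spread between mice sets the precision. P-values weigh each group difference against the spread between mice of the same group. That spread cannot show any difference between the blocks of library numbers. The members, partner lists, marker lists and rules were chosen with earlier results of these data known. All 10 members and every call among the partner lists, up to 5 per list and comparison by smallest p, could be named. Likeness was described for the 3 members with the smallest p. RefSeq promoters were matched for 8 of the 10 members. Single values of some listed genes are not reported here.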

Additional observations from a re-analysis of the deposited data

Results flagged for a closer look

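In 40 sets of 4 mice (10 genes in 4 groups), the sample lying farthest from the rest was compared with the group's range by Dixon's critical value for 4 samples, which chance exceeds in about 5% of sets. It was exceeded in 2 sets. Hdac2 was at 112 CPM in SNI-DMI mouse 1, the lowest of its group, with a gap of 0.948 of the range below the other mice. Hdac8 was at 11.5 CPM in Sham-DMI mouse 4, the highest of its group, with a gap of 0.857 of the range. Neither gene was called in any comparison as fitted.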

How the results depend on the processing

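Hdac3 in Sham-DMI against Sham-Saline mice was called under every alternative tried. With GC content and length trends removed, the called members numbered 0 for injury in saline-treated mice and 6 for Sham-DMI against Sham-Saline. Over all genes tested, 4.96% and 21.8% were called in these fits. Hdac3 and Hdac6, not called for injury as fitted, passed under 2 and 7 of the alternatives. Leaving out each library gave 1 to 4 called members for injury, 1 (Hdac9) without SNI-Saline mouse 1 or 2 or Sham-Saline mouse 3 or 4, and 2 to 3 for Sham-DMI against Sham-Saline. Directions turned for values that were not called. Hdac4 in Sham-DMI against Sham-Saline was 0.024 with the trends removed. Hdac2 in SNI-DMI against Sham-DMI was -0.001 with upper-quartile scaling and -0.003 with DESeq2. Hdac11 in the difference between both desipramine effects was -0.011 with upper-quartile scaling, -0.046 with the trends removed and -0.006 with DESeq2. With a library left out the ranges were -0.007 to 0.117 for Hdac9 in SNI-DMI against SNI-Saline, then in SNI-DMI against Sham-DMI -0.021 to 0.040 for Hdac2, -0.060 to 0.048 for Hdac4, -0.088 to 0.030 for Hdac5 and -0.010 to 0.046 for Hdac8, and in the difference -0.034 to 0.014 for Hdac6, -0.060 to 0.024 for Hdac7 and -0.045 to 0.032 for Hdac11. The cause was not tested.

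Over all genes the count of calls for injury was 2571 as fitted, 1058 with the trends removed, and 682 to 3286 with a library left out. For SNI-DMI against SNI-Saline it was 626 as fitted, 157 with the trends removed, 1843 with DESeq2, 1812 on the 8 libraries alone and 0 without SNI-DMI mouse 1, 2 or 3 or SNI-Saline mouse 1 or 3. For SNI-DMI against Sham-DMI it was 86 as fitted, 505 with DESeq2, 310 without a filter, 9 on the 8 libraries alone and 17 to 850 with a library left out.

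The replicate numbers showed no clear pairing of the mice, though correlations of this size cannot exclude one. Over 24 pairs of the same number in different groups the deviations correlated at -0.081 to 0.184, and 5 of these pairs were over 0.1. Pairs of other numbers correlated at -0.248 to 0.169, and 6 of 16 libraries correlated best with their own number. With the replicate block the called members were 3, 0, 2, 0 and 0 in the order of the comparisons injury, SNI-DMI against SNI-Saline, Sham-DMI against Sham-Saline, SNI-DMI against Sham-DMI and the difference, as without it, and the count over all genes for SNI-DMI against SNI-Saline was 172.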
